A study of Mus musculus with 16 samples.

Results

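The 9 genes of the vascular endothelial growth factor (VEGF) family described here were the ligands Vegfa, Vegfb, Vegfc and Pgf, the receptor tyrosine kinases Flt1, Kdr and Flt4, and the co-receptors Nrp1 and Nrp2. They were taken by symbol from the 47729 genes counted in each library, and all 9 were found. VEGF-A binds FLT1 and KDR, while VEGF-B and placental growth factor (PGF) bind FLT1, and VEGF-C binds FLT4 and KDR. KDR carries most of the mitogenic and permeability signal of VEGF-A in blood vessels, FLT1 binds VEGF-A tightly with weak kinase activity and acts in part as a decoy, and FLT4 is known from lymphatic vessels and is also made by fenestrated endothelium such as the liver sinusoid. The neuropilins NRP1 and NRP2 bind both VEGFs and class 3 semaphorins and hold VEGF receptors and plexins in complexes.

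RNA was sequenced from endothelial cells (ECs), hepatic stellate cells (HSCs), Kupffer cells (the resident macrophages) and hepatocytes of unchallenged adult mouse liver, in 16 libraries of 4 cell types, and every cell type had 2 labelled WT and 2 labelled KO. According to the study's methods, the KO mice carried the tamoxifen-inducible, endothelium-restricted Cdh5-CreERT2 driver, a floxed Zeb2 allele and an R26R eGFP reporter, and the WT mice were Cre-negative littermates. All were given tamoxifen, 2 mg per day on 5 days, so that both labels share that treatment. By default the study used males of 8 weeks and measured RNA 2 weeks after tamoxifen, and it separated HSCs by ultraviolet autofluorescence, Kupffer cells and ECs by surface antigen, and hepatocytes by centrifugation. The labels give each library a number and do not say which libraries share a mouse, so that p-values measure the spread between these libraries, and libraries of different cell types, which may come from the same liver, were treated as independent. In bulk RNA, fewer cells of a type in a sample and less RNA per cell cannot be told apart.

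Each library held between 12872706 and 15690506 reads on genes, and 3 counts, taken as the smallest level this depth shows, stood for 0.191 to 0.233 CPM (reads scaled to the total of their library), which covers counting error only. In each library the median of the 10 markers of its own cell type lay between 82.0% and 120% of its mean in the WT libraries of that cell type. The WT libraries set this scale themselves, so that these shares do not test the labels. Outside their own cell type the median HSC marker reached at most 1.43% of that mean, the median Kupffer cell marker 4.98% and the median hepatocyte marker 8.44%. In the other cell types the 10 EC markers had a median of 1.63% to 6.20% of the WT EC level in HSCs, 4.16% to 8.13% in Kupffer cells and 0.994% to 1.97% in hepatocytes, and no EC marker was at 0 in any library. The summed EC marker level was 13182 to 20590.2 normalized CPM in ECs, 2467 to 2757 in HSCs, 1025 to 1507 in Kupffer cells and 195 to 279 in hepatocytes. Zeb2, the targeted gene, had 136 and 97.1 normalized CPM in the KO ECs, above the 78.5 and 73.6 of the WT ECs. Reads were counted over the whole gene and only exon 7 is floxed, so that this count does not test the deletion, and groups are called by their labels.

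The receptors were the members that set ECs apart. Stretches upstream of a RefSeq start are shown for the 2 receptor kinases that lie on chromosome 5 and for Nrp1, the highest member in every cell type per kilobase. That of Nrp1 lies inside the gene as GENCODE annotates it, which starts at chr8:128358604. The sequences are from RefSeq on GRCm38.p6, hold only bases upstream of the RefSeq start that lie outside the annotated exons of the gene, and read 5′ to 3′ on the strand of the gene. Capitals mark matches to the GC box core GGGCGG on either strand, and to the TATA motif spelled TATAAA.

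Kdr, chr5:75978459-75978705, minus strand: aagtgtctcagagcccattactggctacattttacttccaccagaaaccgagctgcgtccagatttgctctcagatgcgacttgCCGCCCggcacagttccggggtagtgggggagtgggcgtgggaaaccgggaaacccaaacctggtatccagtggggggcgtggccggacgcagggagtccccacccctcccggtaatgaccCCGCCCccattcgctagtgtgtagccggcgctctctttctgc

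Flt1, chr5:147726012-147726261, minus strand: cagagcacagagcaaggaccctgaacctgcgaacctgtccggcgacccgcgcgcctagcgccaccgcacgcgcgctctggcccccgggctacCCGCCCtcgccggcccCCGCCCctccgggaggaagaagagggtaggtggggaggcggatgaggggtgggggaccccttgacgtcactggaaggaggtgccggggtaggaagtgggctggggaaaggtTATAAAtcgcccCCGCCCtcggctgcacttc

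Nrp1, chr8:128358823-128359072, plus strand: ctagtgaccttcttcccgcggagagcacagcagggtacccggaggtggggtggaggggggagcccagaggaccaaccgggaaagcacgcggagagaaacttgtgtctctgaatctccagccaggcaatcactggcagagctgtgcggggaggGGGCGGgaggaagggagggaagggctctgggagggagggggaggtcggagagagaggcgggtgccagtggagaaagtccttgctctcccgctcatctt

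GGGCGG was found in 32.7% of the 32851 mouse promoters in the table over the 250 bases before the start, and in at least 1 window of each of the 9 members, with 2 matches for Kdr, 3 for Flt1 and 1 for Nrp1 among the windows shown. Vegfa and Pgf had more than 1 window each, and that of Pgf beginning at chr12:85175983 had 0 matches. The windows of the members held 59.2% to 76.4% G and C, beside a median of 52.4% over all promoters. The part of this base content in the matches was not tested. TATAAA, present in 12.4% of promoters, was found in that of Flt1 alone among the members, beginning 31 bases upstream of the start. CCGGAA, an ETS core that 12.0% of promoters hold, occurred in the Kdr window, 153 bases upstream. These are matches of letters and not binding sites, and no binding was measured in these libraries.

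Levels below are CPM normalized by TMM over the 16 libraries. TMM factors were between 1.34 and 1.47 in ECs and between 0.497 and 0.588 in hepatocytes, so that this scaling lowered every difference of ECs minus hepatocytes by about 1.37 on the log2 scale, that of HSCs by 1.13 and that of Kupffer cells by 1.06, compared with library totals alone. The median of all 17214 genes tested was 0.54 for ECs minus hepatocytes. Differences between cell types were tested with edgeR's quasi-likelihood test on the 16 libraries, averaged over the labels, and called at a Benjamini-Hochberg adjusted p under 0.05 over all genes tested.

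Among the ligands, Vegfa, which encodes the main driver of vessel growth and sinusoidal EC fenestration, had few reads in all 4 cell types. The cause of these low counts was not tested. Each hepatocyte library held between 17 and 22 Vegfa reads, and no library of another cell type held more than 34. Its level was 2.06 and 2.69 normalized CPM in WT hepatocytes and 2.00 and 2.98 in KO, 0.875 and 1.84 in WT ECs and 0.238 and 0.519 in KO, 1.60 and 1.14 in WT HSCs and 0.833 and 0.605 in KO, and 0.332 and 0.215 in WT Kupffer cells and 0.807 and 1.62 in KO. All 4 hepatocyte libraries lay above the 12 others on this scale. The log2 fold change of ECs minus hepatocytes was -1.75 ± 0.60 (SE, edgeR, adjusted p = 0.0251), and that of Kupffer cells minus hepatocytes was -2.06 ± 0.61 (adjusted p = 0.0128). Both calls rest on the scaling: with library totals alone the values were -0.38 (adjusted p = 0.584) and -1.01 (adjusted p = 0.157). Without the filter on low counts both were lost (-1.53, adjusted p = 0.234, and -1.80, adjusted p = 0.157), and in the WT libraries alone the first was -0.83 (adjusted p = 0.464). The first was also lost without any 1 of the EC, HSC or hepatocyte libraries, with values of -1.87 to -1.33 over all libraries left out in turn, and the second without Kupffer WT 39, Kupffer KO 27, hepatocyte WT 33 or hepatocyte KO 41, with values of -1.72 to -1.60. HSCs against hepatocytes did not pass (-1.28 ± 0.59, adjusted p = 0.0811).

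Vegfb, whose product binds FLT1 and NRP1 and is known from the vessels and lipid handling of heart and muscle, was lowest in Kupffer cells. It had 3.5 and 3.46 normalized CPM in WT ECs and 5.13 and 5.19 in KO, 2.27 and 3.11 in WT HSCs and 3.67 and 3.69 in KO, 1.06 and 0.969 in WT Kupffer cells and 0.807 and 2.15 in KO, and 3.69 and 4.74 in WT hepatocytes and 7.53 and 5.43 in KO. Kupffer cells did not overlap with any other cell type. ECs were higher than Kupffer cells by 1.78 ± 0.43 on the log2 scale (adjusted p = 0.00745), HSCs were higher than Kupffer cells by 1.35 ± 0.43 (adjusted p = 0.0232), and Kupffer cells minus hepatocytes gave -2.08 ± 0.44 (adjusted p = 0.00145). The call between HSCs and Kupffer cells was lost without HSC WT 40, HSC KO 8, HSC KO 20, Kupffer WT 31, Kupffer WT 39 or Kupffer KO 27, with values of 1.07 to 1.37, as well as in the WT libraries alone (1.38, adjusted p = 0.186) and without the filter on low counts (1.36, adjusted p = 0.130). The call between ECs and Kupffer cells was lost in the WT libraries alone (1.73, adjusted p = 0.121), and that between Kupffer cells and hepatocytes with library totals alone (-1.04, adjusted p = 0.0513). ECs and hepatocytes did not differ past the threshold (-0.30 ± 0.41, adjusted p = 0.561), and this difference changed direction with library totals alone, to 1.07 (adjusted p = 0.0386).

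Vegfc, the ligand of FLT4 that drives lymphatic growth, was the ligand with the most reads, and HSCs had most of it. The 4 HSC libraries held 51.8 and 40.7 normalized CPM in WT and 41.6 and 52.3 in KO, and the EC libraries held 16.8 and 14.7 in WT and 26.3 and 20.9 in KO. In Kupffer cells it was 1.72 and 1.13 in WT and 4.03 and 0 in KO, and in hepatocytes 3.47 and 3.72 in WT and 0 and 2.03 in KO. The lowest HSC library thus lay above the highest EC library, and every EC library above all Kupffer and hepatocyte libraries. The mean in HSCs was 2.37 times that in ECs, 27.1 times that in Kupffer cells and 20.2 times that in hepatocytes. ECs minus HSCs did not pass the threshold (-1.27 ± 0.76, adjusted p = 0.246) and passed in the WT libraries alone (-1.57, adjusted p = 0.0268) and without the filter on low counts (-1.31, adjusted p = 0.00123). HSCs were higher than Kupffer cells by 4.77 ± 0.89 (adjusted p = 0.00111) and than hepatocytes by 4.63 ± 0.91 (adjusted p = 0.000948), and ECs were higher than Kupffer cells by 3.5 ± 0.85 (adjusted p = 0.00763) and than hepatocytes by 3.35 ± 0.88 (adjusted p = 0.00594). These sizes depend on single libraries, since without Kupffer KO 27 the only KO Kupffer library left is at 0 and the values became 8.79 for HSCs and 7.47 for ECs, and without hepatocyte KO 41 they became 8.27 and 6.95 against hepatocytes. Kupffer cells minus hepatocytes did not pass (-0.15) and passed in the WT libraries alone (-1.33, adjusted p = 0.0254). This value was -3.91 without Kupffer KO 27, and it changed direction in 13 of the 16 fits with 1 library left out.

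Pgf, which encodes a ligand of FLT1, was counted in all 4 HSC libraries, with 51 and 21 reads in WT and 32 and 73 in KO, which is 2.82, 1.14, 1.78 and 4.41 normalized CPM. Elsewhere it had 4 reads in EC KO 6, 21 in Kupffer WT 31, 7 in hepatocyte WT 29 and 2 in hepatocyte KO 25, and 0 in the 8 other libraries. It was past the threshold as higher in HSCs than in ECs (adjusted p = 0.0267) and than in Kupffer cells (adjusted p = 0.0416), and not against hepatocytes (adjusted p = 0.0799), and no fold is given where libraries are at 0. Neither call held in the WT libraries alone (adjusted p = 0.139 and 0.629). The first was lost without EC WT 34, EC WT 38, EC KO 46, HSC WT 32 or HSC KO 20 (adjusted p of 0.0573 to 0.0884), and the second without any 1 HSC library, Kupffer WT 39, Kupffer KO 27 or Kupffer KO 43 (0.0556 to 0.100) and with DESeq2 (0.0512). Figf, the files' symbol for the VEGF-D gene Vegfd, had 3.27 to 11.1 normalized CPM in HSCs and at most 1.56 in any other library. It was higher in HSCs than in Kupffer cells (adjusted p = 0.0470) and hepatocytes (adjusted p = 0.00863), and against ECs it gave an adjusted p of 0.0638.

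**Figure D1:**
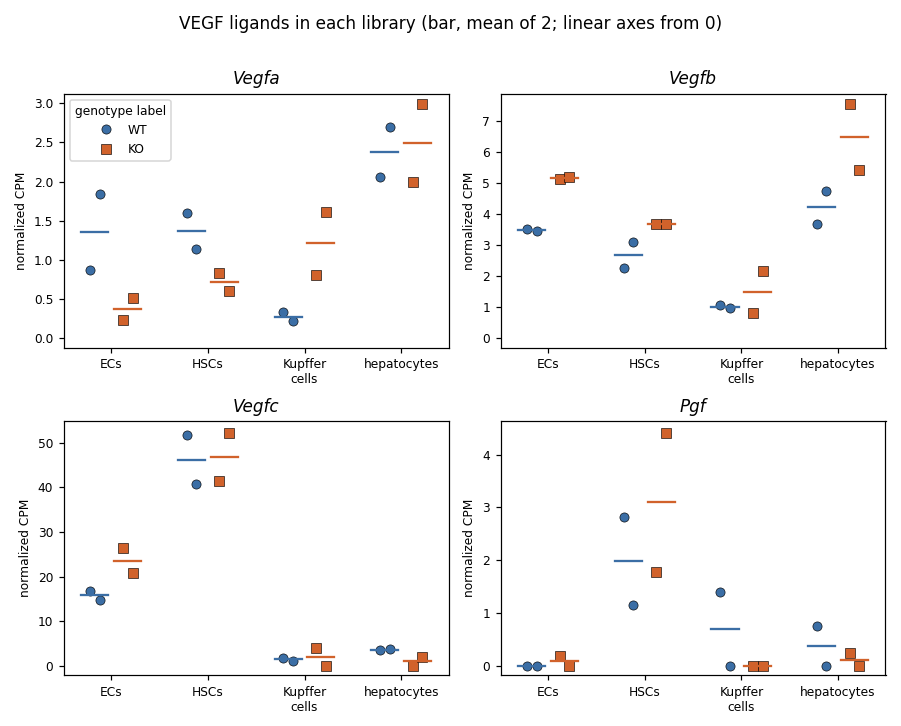
Level of the 4 VEGF ligands in each of the 16 libraries, in normalized CPM on linear axes that start at 0, with circles for libraries labelled WT, squares for those labelled KO and a bar at the mean of 2. Vegfc stands at 40.7 to 52.3 in HSCs and 14.7 to 26.3 in ECs, and Vegfa does not exceed 2.98 in any library.

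The receptors had their highest level in ECs without exception. Kdr, the main signalling receptor of VEGF-A, had 1834 and 1352 normalized CPM in WT ECs and 1384 and 1219 in KO. It had 105 and 33.2 in WT HSCs and 22.2 and 7.92 in KO, 27.7 and 47.7 in WT Kupffer cells and 89.8 and 74.0 in KO, and 14.2 and 18.5 in WT hepatocytes and 11.1 and 2.98 in KO. The lowest EC library lay above all others, by a ratio of means of 34.3 to HSCs, 24.2 to Kupffer cells and 124 to hepatocytes, while HSC and Kupffer libraries overlapped. ECs were higher by 5.48 ± 0.54 on the log2 scale than HSCs (adjusted p = 1.47e-05), by 4.69 ± 0.52 than Kupffer cells (adjusted p = 2.89e-05) and by 7.07 ± 0.58 than hepatocytes (adjusted p = 7.66e-07).

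Flt1 had 478 and 422 normalized CPM in WT ECs and 488 and 570.3 in KO. Outside ECs it had 26.4 and 10.5 in WT HSCs and 7.83 and 17.3 in KO, 16.1 and 13.1 in WT Kupffer cells and 45.2 and 17.6 in KO, and 3.15 and 2.18 in WT hepatocytes and 5.41 and 8.00 in KO. Its EC mean was 31.6 times that of HSCs, 21.3 times that of Kupffer cells and 104 times that of hepatocytes, with log2 fold changes of 5.00 ± 0.42, 4.51 ± 0.41 and 6.85 ± 0.47 and adjusted p-values of 4.69e-06, 8.08e-06 and 2.04e-07.

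Flt4, the receptor of VEGF-C and VEGF-D, had 703 and 591 normalized CPM in WT ECs and 542 and 489 in KO, and lay above Flt1 per kilobase of annotated exons in all 4 EC libraries, but below it in EC KO 46 with the length of the longest transcript (21.3% against 22.6% of the 3 kinases). The other cell types had 22.8 and 14.8 in WT HSCs and 6.44 and 7.38 in KO, 16.8 and 27.1 in WT Kupffer cells and 29.3 and 25.0 in KO, and 9.98 and 10.5 in WT hepatocytes and 3.18 and 3.39 in KO. ECs were higher than HSCs by 5.66 ± 0.24 (adjusted p = 5.91e-08), than Kupffer cells by 4.56 ± 0.23 (adjusted p = 1.81e-07) and than hepatocytes by 6.64 ± 0.26 (adjusted p = 1.29e-08). Of the lymphatic EC markers, Prox1 had 10.8 to 23.6 normalized CPM in ECs and 28.1 to 93.3 in hepatocytes, Pdpn at most 1.76 in ECs, and both entries for Ccl21a were at 0 in all 16 libraries.

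Nrp1 had 2449 and 1658 normalized CPM in WT ECs and 2761 and 2358 in KO. It differed from the kinases outside ECs, with 229 and 213 in WT HSCs and 233 and 241 in KO, 115 and 164 in WT Kupffer cells and 255 and 218 in KO, and 128 and 167 in WT hepatocytes and 93.4 and 137 in KO. The ratio of the EC mean was 10.1 to HSCs, 12.3 to Kupffer cells and 17.5 to hepatocytes, and ECs were higher by 3.32 ± 0.23, 3.66 ± 0.23 and 4.14 ± 0.24 on the log2 scale (adjusted p = 9.07e-07, 7.52e-07 and 7.53e-08). Nrp2 had 310.2 and 208 in WT ECs and 225 and 215 in KO, 20.7 and 8.94 in WT HSCs and 6.17 and 8.71 in KO, 7.5 and 18.1 in WT Kupffer cells and 38.9 and 27.1 in KO, and 23.1 and 15.6 in WT hepatocytes and 9.88 and 11.9 in KO. It was higher in ECs by 4.51 ± 0.37, 3.54 ± 0.35 and 4.04 ± 0.36 (adjusted p = 3.63e-06, 1.4e-05 and 1.51e-06). The microRNA gene Mir1903 lies within Nrp1 on the same strand, and the antisense gene Gm29083 and the gene model Gm37121 overlap Nrp2, so that reads in the shared stretches are uncertain.

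**Figure D2:**
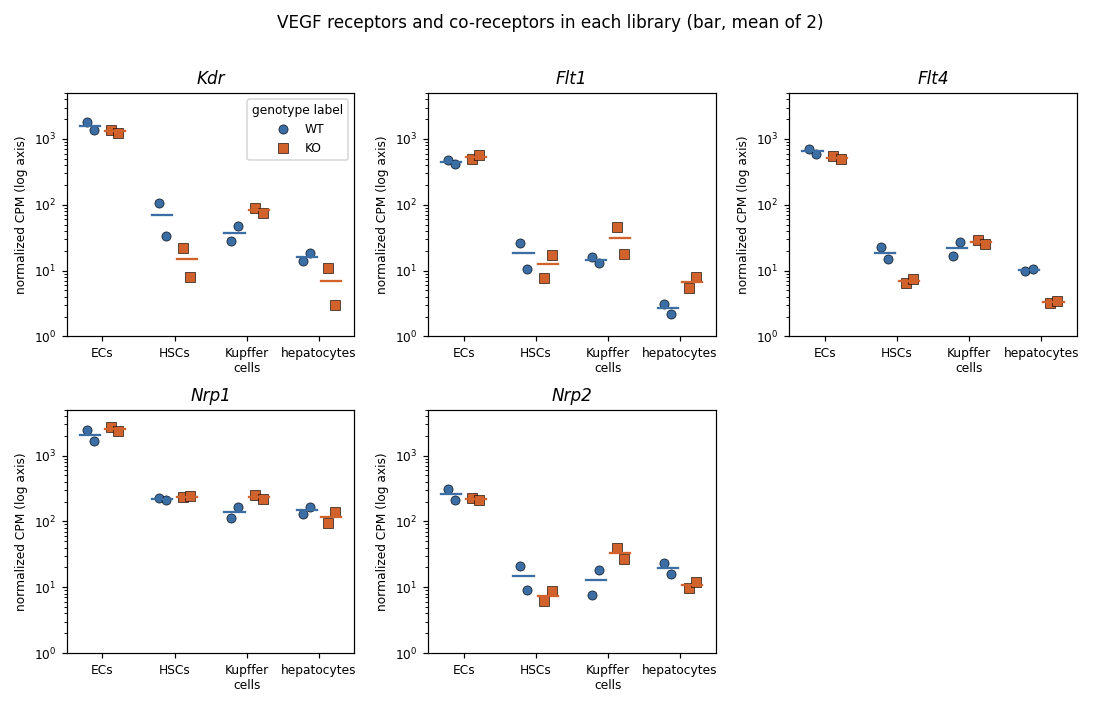
Level of the 3 receptor tyrosine kinases and the 2 neuropilins in each of the 16 libraries, in normalized CPM on a log axis, with circles for the WT label, squares for the KO label and a bar at the mean of 2. All 4 EC libraries lie above the 12 others in each panel, and Nrp1 stays above 93 outside ECs.

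Counted over the members, 5 of 9 were higher and 1 lower in ECs than in HSCs, against a background of 13.3% and 12.8% of all genes tested, 7 were higher and 0 lower in ECs than in Kupffer cells (17.5% and 14.5%), and 6 were higher and 1 lower in ECs than in hepatocytes (33.2% and 25.5%). The 5 receptors were among the higher members in each, and these 15 calls held without any 1 library, in the WT libraries alone and with every other normalization or filter tried. Between HSCs and Kupffer cells 3 members were higher in HSCs (22.3%) and 2 in Kupffer cells (20.6%), between HSCs and hepatocytes 5 were higher in HSCs (34%) and 0 lower (24.4%), and between Kupffer cells and hepatocytes 3 were higher (29.3%) and 2 lower (26.3%) in Kupffer cells. The median log2 fold change of the 9 was 3.32, 3.54 and 4.04 for ECs minus HSCs, Kupffer cells and hepatocytes, beside 0.02, 0.13 and 0.54 over all genes tested.

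Among the cell types other than ECs, Kdr, Flt1 and Flt4 had their lowest means in hepatocytes. HSCs were higher than hepatocytes for Kdr (1.59 ± 0.47, adjusted p = 0.0114, 2.46 without hepatocyte KO 25), Flt1 (1.84 ± 0.39, adjusted p = 0.00162), Flt4 (0.97 ± 0.21, adjusted p = 0.00194) and Nrp1 (0.81 ± 0.21, adjusted p = 0.00592). Kupffer cells were higher than hepatocytes for Kdr (2.37 ± 0.48, adjusted p = 0.00107), Flt1 (2.34 ± 0.40, adjusted p = 0.000314) and Flt4 (2.07 ± 0.22, adjusted p = 5.93e-06). HSCs were lower than Kupffer cells for Flt4 (-1.10 ± 0.20, adjusted p = 0.00107) and Nrp2 (-0.97 ± 0.33, adjusted p = 0.0313), while Kdr, Flt1 and Nrp1 did not pass between these 2 cell types. In the WT libraries alone neither of these held, with -0.24 for Flt4 (adjusted p = 0.675) and 0.19 for Nrp2 (adjusted p = 0.836), and the Nrp2 call was also lost without EC KO 6, EC KO 46, HSC WT 40, HSC KO 8, Kupffer WT 39 or Kupffer KO 27 (-0.96 to -0.56). The calls against hepatocytes that were lost in the WT libraries alone were Kdr in Kupffer cells (1.22, adjusted p = 0.118) and Flt4 and Nrp1 in HSCs (0.87, adjusted p = 0.0868, and 0.58, adjusted p = 0.216). Some differences passed only under an alternative. Kdr in HSCs minus Kupffer cells passed without HSC WT 32 (-1.32, adjusted p = 0.0465) and Nrp2 in Kupffer cells minus hepatocytes without Kupffer WT 31 (1.01, adjusted p = 0.0222). Nrp1 in Kupffer cells minus hepatocytes missed the threshold at 0.48 ± 0.21 (adjusted p = 0.0732), and passed with DESeq2 (0.60, adjusted p = 0.00787) and with 12 of the 16 libraries left out in turn, at 0.68 to 0.88, the exceptions being Kupffer WT 39, Kupffer KO 43, hepatocyte WT 29 and hepatocyte KO 25.

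The EC markers in the same libraries are given beside these low receptor levels, and their part in them was not tested. As a share of the mean level in WT ECs, Kdr had 0.497% to 6.61% in HSCs, 1.74% to 5.64% in Kupffer cells and 0.187% to 1.16% in hepatocytes, where the median EC marker had 1.63% to 6.20%, 4.16% to 8.13% and 0.994% to 1.97%. Flt1 and Flt4 had 0.996% to 5.86% in HSCs and 0.485% to 1.78% in hepatocytes. In Kupffer cells Flt4 had 2.60% to 4.54% and Flt1 2.91% to 10.1%, and Flt1 lay above the median EC marker in Kupffer KO 27 (10.1% against 8.13%). Flt1 also lay above it in HSC KO 8 (1.74% against 1.63%), HSC KO 20 (3.85% against 3.70%) and hepatocyte KO 41 (1.78% against 0.994%). Kdr did so in HSC WT 32 (6.61% against 6.20%) and Flt4 in hepatocyte WT 33 (1.63% against 1.47%). All other kinase values outside ECs lay below the median EC marker. Nrp1 had 10.4% to 11.7% in HSCs and 4.55% to 8.14% in hepatocytes, above the median EC marker in each of these 8 libraries and in each Kupffer library. In HSCs that share moved by little while the median EC marker ranged from 1.63% to 6.20%. Nrp2 lay above the median EC marker in all 4 hepatocyte libraries, at 3.81% to 8.91%, in 3 of 4 HSC libraries (2.38% to 7.99% over the 4) and in 3 of 4 Kupffer libraries (2.89% to 15.0%). Single EC markers were not all low outside ECs, since Eng had 1927 to 2453 normalized CPM in HSCs, and Cdh5, whose promoter drives the Cre, had 130 to 145 in Kupffer cells and 119 to 172 in ECs.

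**Figure D3:**
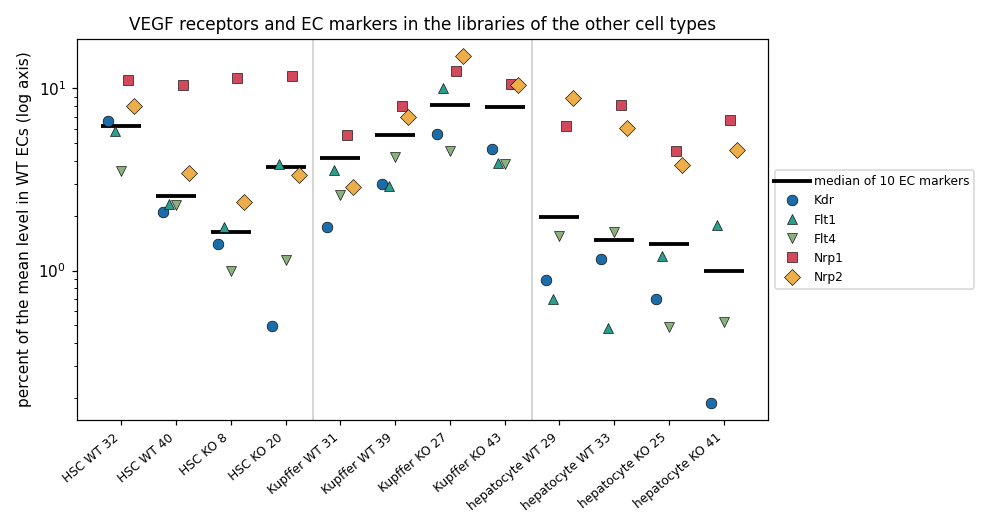
Level of the 5 receptors in each HSC, Kupffer cell and hepatocyte library as a percent of the mean in the 2 WT EC libraries, on a log axis, with the black bar at the median of 10 EC markers on the same scale. Nrp1 lies above the bar in all 12 libraries, at 10.4% to 11.7% in HSCs, while Kdr ranges from 0.187% to 6.61%.

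To compare genes with each other, levels were divided by the length of their annotated exons. In ECs the order per kilobase was Nrp1 (236 ± 47.6 normalized CPM per kilobase, SD, n = 4), Kdr (160.3 ± 29.7), Flt4 (70.6 ± 11.1), Flt1 (36.2 ± 4.54), Nrp2 (20.3 ± 4.01), Vegfc (8.04 ± 2.09), Vegfb (2.69 ± 0.604), Vegfa (0.202 ± 0.163) and Pgf (0.0164 ± 0.0327), and the order of these means was the same with the length of the longest transcript. In HSCs Nrp1 (23.4 ± 1.20) and Vegfc (19.0 ± 2.59) led, with all other members under 5, and in hepatocytes Nrp1 (13.4 ± 3.10) was followed by Vegfb (3.33 ± 1.01). Of the summed level of the 3 kinases per kilobase, ECs gave 59.8% ± 2.34 (SD, n = 4) to Kdr, 26.4% ± 1.42 to Flt4 and 13.8% ± 3.00 to Flt1. The Flt1 share was 10.9% and 12.4% in WT ECs and 14.2% and 17.9% in KO, without overlap. Nor did the Flt4 share overlap, at 26.4% and 28.4% in WT ECs and 25.8% and 25.1% in KO, while the Kdr share did. By level, 48.5% of all genes tested did not overlap between the labels in ECs. Kupffer cells had 57.1% ± 6.98 Kdr, 28.0% ± 6.39 Flt4 and 14.8% ± 5.28 Flt1, which overlaps with the EC shares. In HSCs the Kdr share ran from 28.7% to 71.2% and that of Flt1 from 11.9% to 41.9%, and in hepatocytes they ran from 24.8% to 60.9% and from 4.63% to 44.4%, with the lowest Kdr and highest Flt1 share in HSC KO 20 and hepatocyte KO 41. Of the ligands, Vegfc took 73.1% ± 2.84 of the summed ligand level per kilobase in ECs and 86.0% ± 1.92 in HSCs, and Vegfb 67.0% ± 16.7 in hepatocytes. Vegfa took 11.6% ± 2.24 in hepatocytes, 9.63% ± 8.40 in Kupffer cells, 2.15% ± 2.04 in ECs and 1.12% ± 0.450 in HSCs.

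**Figure D4:**
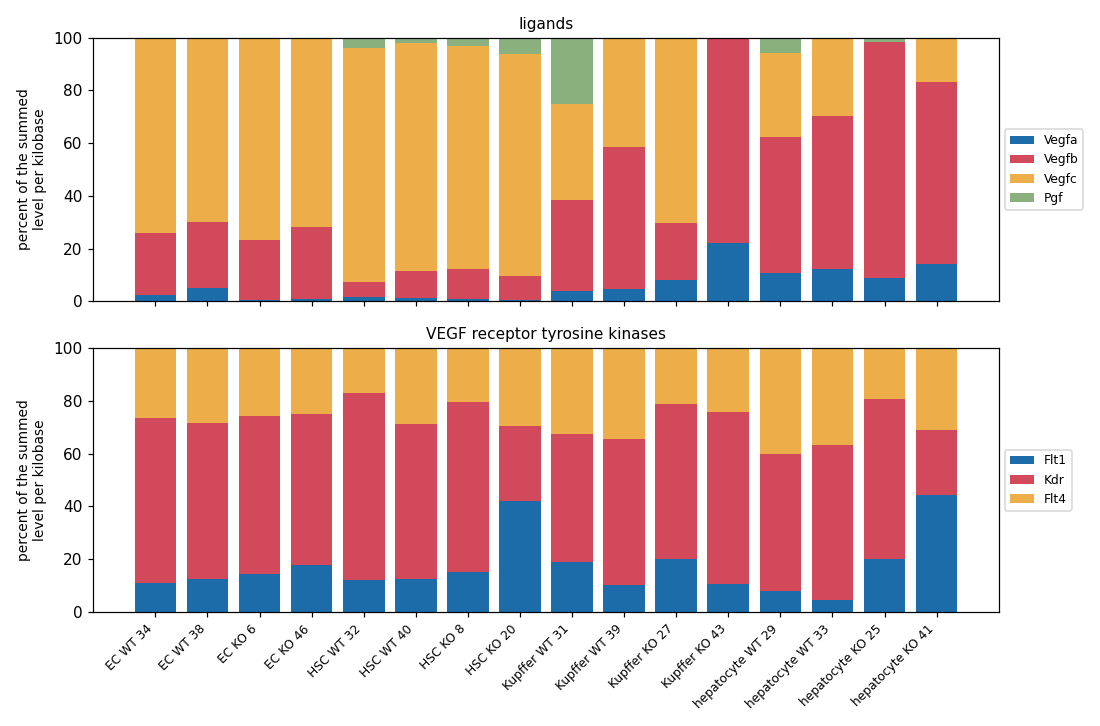
Share of each ligand in the summed level of the 4 ligands (top) and of each kinase in that of the 3 VEGF receptor kinases (bottom), in percent of normalized CPM per kilobase of annotated exon, with 1 bar per library. Vegfc fills 69.9% to 76.4% of the ligand bar in ECs and 84.4% to 88.5% in HSCs, and Kdr fills 57.1% to 62.7% of the kinase bar in ECs, 28.7% to 71.2% in HSCs and 24.8% to 60.9% in hepatocytes.

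Between the KO and WT labels, 0 of the members passed the threshold in any cell type by edgeR's quasi-likelihood test within that cell type. Of the 9, 8 passed the filter on low counts in ECs, Kupffer cells and hepatocytes, where Pgf did not, and 9 in HSCs. Of all genes tested 2.08% passed in ECs, and 0% in each of the other cell types. At an unadjusted p under 0.05 there were 2 of 9 members in HSCs beside 8.75% of all genes tested, 2 of 8 in Kupffer cells beside 5.09%, 1 of 8 in hepatocytes beside 7.11% and 0 of 8 in ECs beside 15.0%, and DESeq2 called 1 in HSCs and 0 elsewhere. With 2 libraries against 2, an exact permutation test of 1 gene cannot give a p under 0.333, so that none was made. A missed threshold does not show that the labels had the same level.

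In ECs the log2 fold change of KO minus WT was -0.28 ± 0.28 for Kdr (SE, adjusted p = 0.699), 0.24 ± 0.23 for Flt1 (adjusted p = 0.691) and -0.32 ± 0.24 for Flt4 (adjusted p = 0.600). Nrp1 had 0.33 ± 0.31 and Nrp2 -0.23 ± 0.26. Of the ligands, Vegfc had 0.59 ± 0.27 (unadjusted p = 0.0713, adjusted p = 0.389), Vegfb 0.57 ± 0.47 and Vegfa, with 5 and 10 reads in KO and 17 and 34 in WT, -1.83 ± 1.01. The labels did not overlap for 5 of the 8 members tested, with Vegfb, Vegfc and Flt1 above and Vegfa and Flt4 below WT, beside 48.5% of all genes tested. Hepatocyte markers differed between these libraries, at a median of 4.57% and 8.44% of the WT hepatocyte level in WT ECs and 0.935% and 0.814% in KO ECs, and their part in these values was not tested.

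In HSCs 2 receptors had an unadjusted p under 0.05. Kdr had -2.20 ± 0.71 (unadjusted p = 0.0243, adjusted p = 0.478) and Flt4 -1.43 ± 0.37 (unadjusted p = 0.00973, adjusted p = 0.392). Nrp2 had -0.99 ± 0.51, Flt1 -0.54 ± 0.60 and Nrp1 0.11 ± 0.20. DESeq2 called Kdr (adjusted p = 0.0283), and the 16-library fit called Flt4 (-1.44, adjusted p = 0.0398). Without HSC WT 32, the library with the most Kdr, the Kdr value was -1.13, that of Nrp2 -0.25 and that of Flt1 0.28. The ligands had -0.92 ± 0.89 for Vegfa, 0.47 ± 0.57 for Vegfb, 0.03 ± 0.25 for Vegfc and 0.65 ± 0.83 for Pgf. Labels did not overlap for Vegfb and Nrp1, above WT in KO, and for Vegfa, Kdr, Flt4 and Nrp2, below WT in KO, which is 6 of 9 members beside 40.5% of all genes tested. The median EC marker was at 6.20% and 2.58% of the WT EC level in the WT HSC libraries and at 1.63% and 3.70% in KO. Hepatocyte markers did not overlap, at a median of 1.52% and 3.36% of the WT hepatocyte level in WT and 0.209% and 0.543% in KO, and nor did the 4 smooth muscle markers, with a summed level of 123 and 112 normalized CPM in WT and 165 and 358 in KO. The part of these markers in the receptor values was not tested.

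In Kupffer cells the 5 receptors all had positive values, of 1.09 ± 0.37 for Kdr (unadjusted p = 0.0232), 1.33 ± 0.51 for Nrp2 (unadjusted p = 0.0391), 1.08 ± 0.49 for Flt1, 0.74 ± 0.32 for Nrp1 and 0.28 ± 0.38 for Flt4, each with an adjusted p of at least 0.933. Without Kupffer KO 27 Flt1 had 0.28, and without Kupffer WT 31 Nrp2 had 0.83, Nrp1 0.49 and Flt4 -0.03. Vegfa had 2.12 ± 1.32, from 5 and 4 reads in WT and 14 and 27 in KO. Kdr, Flt1, Nrp1, Nrp2 and Vegfa did not overlap and lay above WT in KO, which is 5 of 8 members beside 37.3% of all genes tested. The median EC marker moved the same way, with 4.16% and 5.58% in WT and 8.13% and 7.91% in KO. Its part was not tested.

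In hepatocytes Flt4 had 9.98 and 10.5 normalized CPM in WT and 3.18 and 3.39 in KO, from 92 and 82 reads and from 27 and 25, with a log2 fold change of -1.67 ± 0.46 (unadjusted p = 0.0106, adjusted p = 0.700). Kdr had -1.24 ± 0.63, Nrp2 -0.87 ± 0.36, Nrp1 -0.39 ± 0.25 and Flt1 1.28 ± 0.58. The ligand values were 0.59 ± 0.52 for Vegfb, 0.03 ± 0.71 for Vegfa, which changed direction with library totals alone (-0.04), and -1.87 ± 1.41 for Vegfc. Single libraries set some of these sizes, since Vegfc had -7.95 without hepatocyte KO 41, where the KO library left is at 0, and -0.85 without hepatocyte KO 25, and Kdr had -0.58 and -2.48 without the same libraries. Vegfb and Flt1 lay above and Vegfc, Kdr, Flt4 and Nrp2 below WT in KO without overlap, which is 6 of 8 members beside 40.8% of all genes tested. The median EC marker was at 1.97% and 1.47% in WT and at 1.40% and 0.994% in KO.

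**Figure D5:**
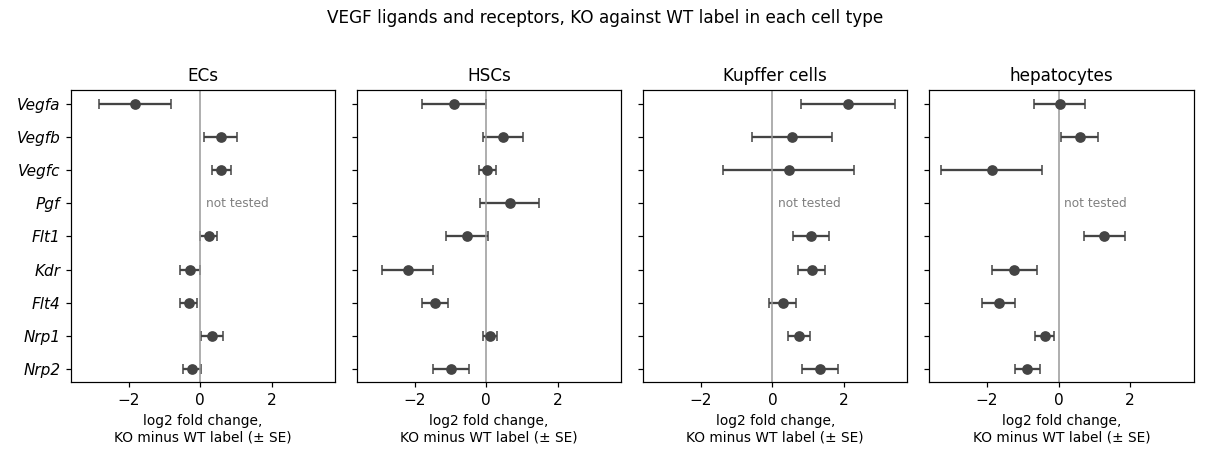
Fitted log2 fold change of KO minus WT label for each member in each cell type, from edgeR, with bars of 1 SE on either side and the members named at the left. None passed the threshold, the receptor values lie between -0.32 and 0.33 in ECs, and those in Kupffer cells are all above 0.

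An interaction term over the 16 libraries tested if KO minus WT was unequal in a pair of cell types. 0 members passed in any of the 6 pairs, beside 0.0349% of all genes tested for ECs and HSCs, 2.07% for ECs and Kupffer cells, 0.0697% for ECs and hepatocytes, 0.593% for HSCs and Kupffer cells, 0.0755% for HSCs and hepatocytes and 0.0116% for Kupffer cells and hepatocytes. At an unadjusted p under 0.05 there were 1, 3, 1, 5, 1 and 4 of the 9 members in these pairs, beside 4.85%, 13.96%, 9.12%, 11.7%, 7.16% and 8.18% of all genes tested. The smallest adjusted p was that of Flt4 between HSCs and Kupffer cells, at 0.0781 (-1.75 ± 0.41), where Kdr had -3.32 ± 0.91 (adjusted p = 0.135). DESeq2 called 1 member between ECs and Kupffer cells, 3 between HSCs and Kupffer cells and 1 between Kupffer cells and hepatocytes.

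Genes that work with the family were read from lists written from general knowledge. Of all genes tested 33.2% were higher and 25.5% lower in ECs than in hepatocytes, and 12.8%, 22.3% and 34% were higher in HSCs than in ECs, Kupffer cells and hepatocytes, and the counts below stand beside these shares and those at an unadjusted p under 0.05 between the labels. Among 5 genes of VEGF-C maturation, Ccbe1, Adamts3 and Pcsk5 were higher in HSCs than in each of the 3 other cell types, by adjusted p. Pcsk7 was lower in HSCs than in ECs and hepatocytes, and did not pass against Kupffer cells. ADAMTS3, held by CCBE1, and the convertases PCSK5, FURIN and PCSK7 cut the VEGF-C precursor. Pcsk5 had a mean of 51.5 ± 7.42 normalized CPM in HSCs (SD, n = 4), 15.6 ± 4.44 in hepatocytes, 2.42 ± 1.82 in ECs and 1.96 ± 1.30 in Kupffer cells, and Adamts3 had 8.35 ± 1.24 in HSCs and at most 0.566 in any other library. Furin was higher in hepatocytes (66.1 ± 15.7) and Kupffer cells (58.1 ± 26.9) than in HSCs (20.1 ± 4.0) and ECs (24.2 ± 7.88), with adjusted p-values of 5.7e-05 and 0.000484 against HSCs. Between the labels 0 of the genes tested passed in any cell type by edgeR, with 1 at an unadjusted p under 0.05 in ECs and 1 in Kupffer cells, and Pcsk5 in ECs had -2.15 ± 0.69 (adjusted p = 0.224).

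Of the 9 hypoxia regulators of Vegfa, 3 were higher and 2 lower in ECs than in hepatocytes, close to the 33.2% and 25.5% of all genes tested. Epas1, which encodes HIF-2α, had 416 ± 147 normalized CPM in HSCs, 229.9 ± 74.2 in ECs, 43.5 ± 17.9 in hepatocytes and 27.0 ± 9.51 in Kupffer cells. ECs were higher than hepatocytes by 2.41 ± 0.29 (adjusted p = 2.06e-05) and lower than HSCs (-0.83 ± 0.28, adjusted p = 0.0467). Egln3, a prolyl hydroxylase that marks HIF for decay, was lower in ECs than in hepatocytes (-5.09 ± 1.11, adjusted p = 0.00185), and so was Egln2. Egln1, of the same family, was higher in ECs (1.64 ± 0.38, adjusted p = 0.00278). Between the labels 0 genes passed by edgeR, with 2 at an unadjusted p under 0.05 in HSCs, 1 each in ECs and hepatocytes and 0 in Kupffer cells, and Epas1 had -0.69 ± 0.25 in ECs (adjusted p = 0.267).

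Of 10 partners of VEGF receptors, 9 were higher in ECs than in hepatocytes and 1, Ptprj, was lower, beside 33.2% and 25.5% of all genes tested. HSCs also had 9 higher and 1 lower than hepatocytes (34% and 24.4%), and Kupffer cells 8 and 1 (29.3% and 26.3%). Against Kupffer cells, ECs had 4 higher and 3 lower (17.5% and 14.5%), and against HSCs 5 and 2 (13.3% and 12.8%). Ptprb, the endothelial phosphatase VE-PTP that acts on KDR and its complexes, had 1339 ± 238 normalized CPM in ECs and 32.7 ± 23.3 in HSCs (5.48 ± 0.37, adjusted p = 8.08e-07). Efnb2, which encodes ephrin-B2 and takes part in VEGF receptor uptake, had 20.7 ± 2.53 in ECs and 1.05 ± 1.0 in HSCs. Of 11 class 3 semaphorin and plexin genes tested of 12 listed, 6 were higher in ECs than in hepatocytes, beside 33.2% of all genes tested, led by Sema3f (25.9 ± 7.78 in ECs), Plxna4 (21.0 ± 3.86) and Plxnd1 (378 ± 48.2). HSCs had 7 higher and 1 lower than hepatocytes (34% and 24.4%), and Kupffer cells 4 and 1 (29.3% and 26.3%). ECs had 3 higher than HSCs, Plxna2, Plxnd1 and Sema3f, and 4 lower (13.3% and 12.8%). The lower genes were Sema3a, a ligand of NRP1, Plxna1, Plxna3 and Sema3d. Beside Kupffer cells, ECs had 4 higher and 1 lower (17.5% and 14.5%).

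Among 30 genes of VEGF receptor signalling, 20 were higher and 4 lower in ECs than in hepatocytes, beside 33.2% and 25.5% of all genes tested. Their median log2 fold change was 1.57 beside 0.54 over all genes tested. Kupffer cells had 19 higher and 8 lower than hepatocytes (29.3% and 26.3% of all genes tested), and HSCs 15 and 3 (34% and 24.4%). Against Kupffer cells, ECs had 9 higher and 7 lower (17.5% and 14.5%), with a median of -0.16 beside 0.13. Against HSCs, ECs had 9 and 5 (13.3% and 12.8%). Fyn, a SRC-family kinase, had 118 ± 4.59 normalized CPM in ECs and 45.1 ± 17.3 in Kupffer cells, and Nos3, the endothelial nitric oxide synthase, had 150.02 ± 74.4 in ECs and 7.90 ± 4.01 in Kupffer cells. Between the labels 1 of the 29 tested in ECs passed. Sh2d2a, an adaptor known from T cells that binds KDR, had 18.6 and 31.6 in WT ECs and 3.66 and 4.31 in KO, with -2.65 ± 0.39 (adjusted p = 0.0326). The call was lost without EC KO 6 (-2.53, adjusted p = 0.0795) or EC KO 46 (-2.75, adjusted p = 0.0855), and also in the 16-library fit (adjusted p = 0.173) and without the hepatocyte-enriched genes (adjusted p = 0.152). The 5 lymphocyte markers had a summed level of 50.4 and 98.7 in these WT libraries and 29.1 and 27.4 in KO, and their part in this result was not tested.

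Of 16 genes known to respond to VEGF in endothelium, 12 were higher and 0 lower in ECs than in hepatocytes, beside 33.2% and 25.5% of all genes tested, among them Dll4 (373 ± 69.2 normalized CPM in ECs), the Notch ligand of tip cells. Kupffer cells had 11 higher and 0 lower than hepatocytes (29.3% and 26.3%), and HSCs 6 and 1 (34% and 24.4%). Against Kupffer cells, ECs had 8 higher and 3 lower (17.5% and 14.5%), and against HSCs 7 and 3 (13.3% and 12.8%). Between the labels in ECs, 1 of 16 passed, with 4 higher and 2 lower at an unadjusted p under 0.05, beside 15.0% of all genes tested in ECs. It was Pdgfb, which encodes the ligand that recruits mural cells, with 1.24 and 2.43 in WT ECs and 11.2 and 14.9 in KO (2.83 ± 0.50, adjusted p = 0.0492). The call was lost without EC KO 6 (3.03, adjusted p = 0.0804) or EC KO 46 (2.63, adjusted p = 0.177), in the 16-library fit (adjusted p = 0.546), without the hepatocyte-enriched genes (adjusted p = 0.180) and with library totals alone (adjusted p = 0.0649). Its level in Kupffer cells was 13.8 ± 2.83, and the 10 Kupffer cell markers had a median of 1.24% and 0.714% of the WT Kupffer level in WT ECs and 1.55% and 1.77% in KO ECs, and their part in this result was not tested. In HSCs, Kupffer cells and hepatocytes 0 genes of this list passed between the labels by edgeR, with 3, 5 and 2 at an unadjusted p under 0.05, beside 8.75%, 5.09% and 7.11% of all genes tested.

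The genes whose log2 level over the 16 libraries was most like that of a member, by Pearson's r as a description over libraries that share cell types, were Pde2a for Kdr (r = 0.990), Cyyr1 for Flt1 (0.987), Ptprb for Flt4 (0.988), Gm25135 and Clec4g for Nrp1 (0.973 and 0.972) and Fam124a for Nrp2 (0.969). Ptprb is in the partner list and Clec4g is an EC marker of the sinusoid. For the ligands they were Sstr2 for Vegfa (0.886), Zranb1 for Vegfb (0.945), Zbtb8a for Vegfc (0.930) and Fstl3 for Pgf (0.919). Some of these genes were themselves scarce. Gm25135 had a mean of 0.962 normalized CPM in ECs and at most 0.0151 in another cell type. The highest mean in a cell type was 2.67 for Sstr2 and 2.61 for Fstl3.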

How the data were processed

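RNA-seq of 4 liver cell types under 2 genotype labels was analysed from the raw counts the authors deposited, 1 table of reads per Ensembl mouse gene for each of the 16 libraries, without normalization. The submitters' processing notes name HISAT2 2.1.0, HTSeq 0.9.1, Trimmomatic 0.32, edgeR and GRCm38. The annotation release and strand setting are not given in the sources used here, and the series and sample descriptions name different library kits. The 5 summary lines of each table were left out of the totals, and of all alignments 24.8% to 47.9% per library had been set aside as not unique. Gene positions and exon lengths came from GENCODE (GRCm38, mouse release 21), where 98.9% of the identifiers were found.

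Groups follow the labels, and no library was left out. edgeR 4.0.16 in R 4.3.3 (filterByExpr, TMM, quasi-likelihood test, Benjamini-Hochberg over all genes tested, threshold 0.05) compared labels within each cell type over 4 libraries and cell types and interactions over 16. It was tested on simulated data first. The alternatives tried were a fit with DESeq2 1.42.0, size factors by RLE, omitting the filter, a minimum of 10 counts per library, a single fit of all 16 libraries for the labels, the 8 WT libraries alone, leaving out the 857 hepatocyte-enriched genes (at least 10 CPM in WT hepatocytes and 8 times the Kupffer cell level) and leaving out each library in turn. Library totals without TMM were added after the data had been seen. Levels use TMM over 16 libraries, and likeness log2 CPM with a prior count of 2.

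The members and gene lists were chosen with earlier results of these data known. Besides the 9 members, the genes named are, from each list, those past the threshold between labels (in ECs otherwise the 2 with the smallest p), the 3 with the largest difference between ECs and hepatocytes, and, for each member, the genes most like it. Arnt, Gipc1 and Myo6 also fell under this rule and are not described. Ccbe1, Pcsk7, Egln2, Ptprj, Sema3a, Sema3d, Plxna2, Plxna3, Pdpn, Prox1, Eng and Cdh5 were named after their values were seen. Python 3.11.15 with matplotlib 3.10.9 was used for the figures.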

Additional observations from a re-analysis of the deposited data

How the results depend on the processing

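No paired analysis was possible because the labels give the groups no shared replicate numbers. Over 83 log2 fold changes of single genes and 1473 alternatives, 1354 kept their direction and their side of the threshold, 50 lost it, 30 gained it and 39 changed direction, and the 39 belong to 18 results, of which 1 (Nrp2 in HSCs and Kupffer cells) was past the threshold. The 83 leave out the interaction terms and Pgf between cell types, where its calls were lost in many settings as given above. The 15 receptor calls of ECs against each other cell type held under all alternatives run. Except where a value shows it, the cause was not tested.

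Members past the threshold between HSCs and Kupffer cells numbered 5, and 1 in the 8 WT libraries alone, 3 with at least 10 counts in every library and 2 to 5 with each library left out, where 2 remained without HSC WT 40, HSC KO 8, Kupffer WT 39 or Kupffer KO 27 and 3 without HSC KO 20. Between HSCs and hepatocytes 5 became 3 in the 8 WT libraries. Between the labels in HSCs 0 became 1 with DESeq2, without a filter or with all 16 libraries in 1 fit. For the interaction, 0 became 1 without a filter for ECs and HSCs, for ECs and hepatocytes and for HSCs and hepatocytes, 1 with DESeq2 or without a filter for ECs and Kupffer cells, 3 with DESeq2, 3 without a filter and 1 with at least 10 counts for HSCs and Kupffer cells, and 1 with DESeq2 and 3 without a filter for Kupffer cells and hepatocytes.

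Log2 differences that changed direction with library totals alone were Vegfb in ECs minus hepatocytes (1.07) and in HSCs minus hepatocytes (0.39), Nrp2 in HSCs minus hepatocytes (0.65), Vegfc in Kupffer cells minus hepatocytes (0.91, and 0.094 without a filter) and Vegfa in hepatocytes by label (-0.036). In the 8 WT libraries alone they were, for HSCs minus Kupffer cells, Kdr (0.86), Flt1 (0.32) and Nrp2 (0.19), and for Kupffer cells minus hepatocytes, Nrp1 (-0.074) and Nrp2 (-0.59). Without hepatocyte-enriched genes Vegfc by label in HSCs was -0.0081. With each library left out, the ranges that crossed 0 between cell types were Vegfa in ECs minus Kupffer cells (-0.056 to 0.60), Vegfb in ECs minus hepatocytes (-0.29 to 0.033), Nrp2 in HSCs minus hepatocytes (-0.59 to 0.034) and Vegfc in Kupffer cells minus hepatocytes (-3.91 to 3.48). By label they were Nrp2 in ECs (-0.47 to 0.085), Vegfc (-0.15 to 0.22), Pgf (-0.16 to 1.44) and Flt1 (-1.23 to 0.28) in HSCs, Vegfb (-0.39 to 1.09), Vegfc (-7.58 to 1.44) and Flt4 (-0.034 to 0.70) in Kupffer cells, and Vegfa in hepatocytes (-0.27 to 0.29). Where a library left out leaves a group with 1 library, that library is assumed to vary like the others. Depth limits Vegfa, with 4 to 34 reads in a library, and Pgf, at 0 in 8.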
